A study of Mus musculus with 16 samples.

Results

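The 10 genes described here encode the subunits of the transcription factor NF-κB and the proteins that hold it in check in T cells. The subunits are *Nfkb1*, *Nfkb2*, *Rel*, *Rela* and *Relb*, and the inhibitors and regulators are *Nfkbia*, *Nfkbie*, *Nfkbiz*, *Bcl3* and *Tnfaip3*. They were taken by gene name from the count table, in which each of the 10 had 1 row among 55450 genes. Total RNA was sequenced from CD4+ and CD8+ tumor-infiltrating T lymphocytes (TILs) of subcutaneous B16F10 tumors, a mouse melanoma line, grown in wild-type (WT) mice or in mice lacking *Sirt2* (Sirt2KO), a NAD+-dependent deacetylase. There were 4 libraries for each of the 4 groups WT CD4, Sirt2KO CD4, WT CD8 and Sirt2KO CD8, 16 in all. The WT mice were C57BL/6J and the knockout was the constitutive B6.129-Sirt2tm1.1Fwa/J strain, so *Sirt2* was lost in the tumor's host cells as well as in the T cells. The study used young adult mice of both sexes, and the sex of the mice behind these libraries is not stated. The labels of these groups name no other agent. TILs were freed by enzymatic digestion of the tumor, a density gradient and CD3ε beads, and neither the number of mice per library nor whether CD4+ and CD8+ libraries came from the same mouse is stated, so the p-values measure the spread between libraries.

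In resting T cells, dimers of the subunits are kept in the cytoplasm by inhibitor of κB (IκB) proteins. Signals from the T cell receptor with CD28, from TNF receptor family members and from cytokine receptors activate the IκB kinase, which marks IκB for degradation, and RelA- and c-Rel-containing dimers then enter the nucleus. A slower, noncanonical branch processes the *Nfkb2* product and releases dimers that contain RelB. Several inhibitors are themselves NF-κB target genes and feed back on the pathway, among them *Nfkbia*, which encodes IκBα, and *Tnfaip3*, which encodes the ubiquitin-editing enzyme A20. c-Rel is required for the development of regulatory T (Treg) cells, and RelA is a reported substrate of SIRT2.

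The κB consensus motif, the 10-base sequence to which NF-κB dimers bind, was looked for on both strands of the RefSeq promoter windows of these genes (GRCm38.p6, 250 bases before to 50 after an annotated start), because NF-κB is known to act on its target genes, these among them, through it. Windows were found for 7 of the 10 genes, not for *Nfkb1*, *Relb* or *Nfkbiz*. The motif was present in a window of 6 of the 7, which are shown 5′ to 3′ in the direction of the gene with the matching bases in capitals. For comparison, 4.51% of all 32851 windows and 5.14% of the 27025 genes with a window held a match.

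The matches are shown with their flanking bases because the genes differ in the letters of the motif, its number of copies and its distance from the start.
Nfkbia: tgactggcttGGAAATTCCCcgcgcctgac
Rel: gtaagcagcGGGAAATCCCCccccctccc
Nfkb2 first start, distal: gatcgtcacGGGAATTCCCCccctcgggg
Nfkb2 first start, proximal: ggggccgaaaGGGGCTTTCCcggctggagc
Nfkb2 second start, distal: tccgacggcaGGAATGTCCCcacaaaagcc
Nfkb2 second start, proximal: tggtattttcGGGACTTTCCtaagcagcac
Tnfaip3 distal: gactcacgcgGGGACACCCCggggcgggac
Tnfaip3 proximal: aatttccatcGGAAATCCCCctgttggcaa
Bcl3: tcggcggcagGGGAAGTCCCgctgcccggc
Nfkbie: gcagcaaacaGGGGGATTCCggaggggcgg

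The *Nfkbia* site (minus strand, chr12:55492657-55492686) began 29 bases upstream of the start, the *Rel* site (minus strand, chr11:23771042-23771070) 92 bases upstream and the *Nfkbie* site (plus strand, chr17:45555584-45555613) 106 bases upstream, where coordinates are those of the printed stretch. Those of *Rel* and the distal *Nfkb2* site hold 2 overlapping matches, which the 11 capitals cover together. The *Nfkb2* sites (plus strand) lie at chr19:46304689-46304717, chr19:46304716-46304745, chr19:46305449-46305478 and chr19:46305695-46305724, and the *Tnfaip3* sites (minus strand) at chr10:19015516-19015545 and chr10:19015403-19015432. The *Bcl3* site (minus strand, chr7:19822734-19822763) lies 2 bases downstream of the start. A further *Nfkb2* window holds the last of its sites again. No match was found in the window of *Rela* or in the second window of *Tnfaip3*. A match is a run of letters and says nothing of binding in these cells.

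The stretch before the start of *Nfkbia* is printed to show how close to the start its single match lies.
Nfkbia promoter: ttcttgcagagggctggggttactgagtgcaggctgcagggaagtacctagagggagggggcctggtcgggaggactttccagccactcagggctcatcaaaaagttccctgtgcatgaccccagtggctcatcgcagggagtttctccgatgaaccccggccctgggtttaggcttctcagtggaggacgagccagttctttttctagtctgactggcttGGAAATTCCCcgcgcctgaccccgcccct

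Libraries held 28000949 to 62407851 counts. Far fewer genes were detected in 3 of them, with 8169 in Sirt2KO CD4 replicate 4, 12587 for WT CD4 replicate 1 and 14411 for the first WT CD8 library, against 17730 to 22138 in the other 13. These 3 are called the low-gene libraries, and the differences of the 10 genes between the cell types are given with and without them. Levels are given as CPM, the count of a gene relative to the total of its library, with library totals scaled by edgeR's TMM factors. *Sirt2* itself, the deleted gene, had 12.4, 10.3, 10.6 and 0 CPM in Sirt2KO CD4 replicates 1 to 4 against 73.5, 41.2, 41.5 and 45.9 CPM in WT CD4. In CD8+ TILs it had 9.18, 10.1, 6.63 and 7.21 CPM in Sirt2KO against 48.6, 35.8, 32.8 and 34.5 CPM in WT, so every Sirt2KO library lay below every WT library of its cell type, in keeping with its label. The 0 in Sirt2KO CD4 replicate 4 allows up to 0.0536 CPM at that library's depth (3 counts, counting error only). On the opposite strand, 42 exonic bases of *Sirt2* overlap *Nfkbib*, the IκBβ gene, with mean counts of 1007.4 and 1267.6 over the 16 libraries. The strand setting of the counting is not stated, so reads from this overlap cannot be assigned with certainty. *Cd4* was 438 to 622 CPM in WT CD4 and 0 to 2.08 in WT CD8, and *Cd8a* was 0.0323 to 9.27 and 957 to 1059.9 CPM in the same order. In Sirt2KO, *Cd4* was 383 to 604 CPM in CD4+ and 1.76 to 4.93 in CD8+ TILs, and *Cd8a* was 10.4 to 33.6 and 985 to 1281 CPM. Every Sirt2KO CD4 library was thus above every WT CD4 library for *Cd8a*, and the part of this in the other values was not tested. The summed level of the 13 myeloid markers was 16.6 to 19.97 CPM in WT CD4, 21.4 to 149 in Sirt2KO CD4 (at most 57.8 without replicate 4), 10.8 to 15.8 in WT CD8 and 16.6 to 57.7 in Sirt2KO CD8, and that of the 6 B cell markers was at most 12.2 CPM in any library. Melanoma markers summed to 5.52 to 95.7 CPM in WT CD4 and 10.03 to 81.4 in Sirt2KO CD4, the upper end being a low-gene library in both, and to at most 15.7 CPM in CD8+ libraries.

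**Figure D1:**
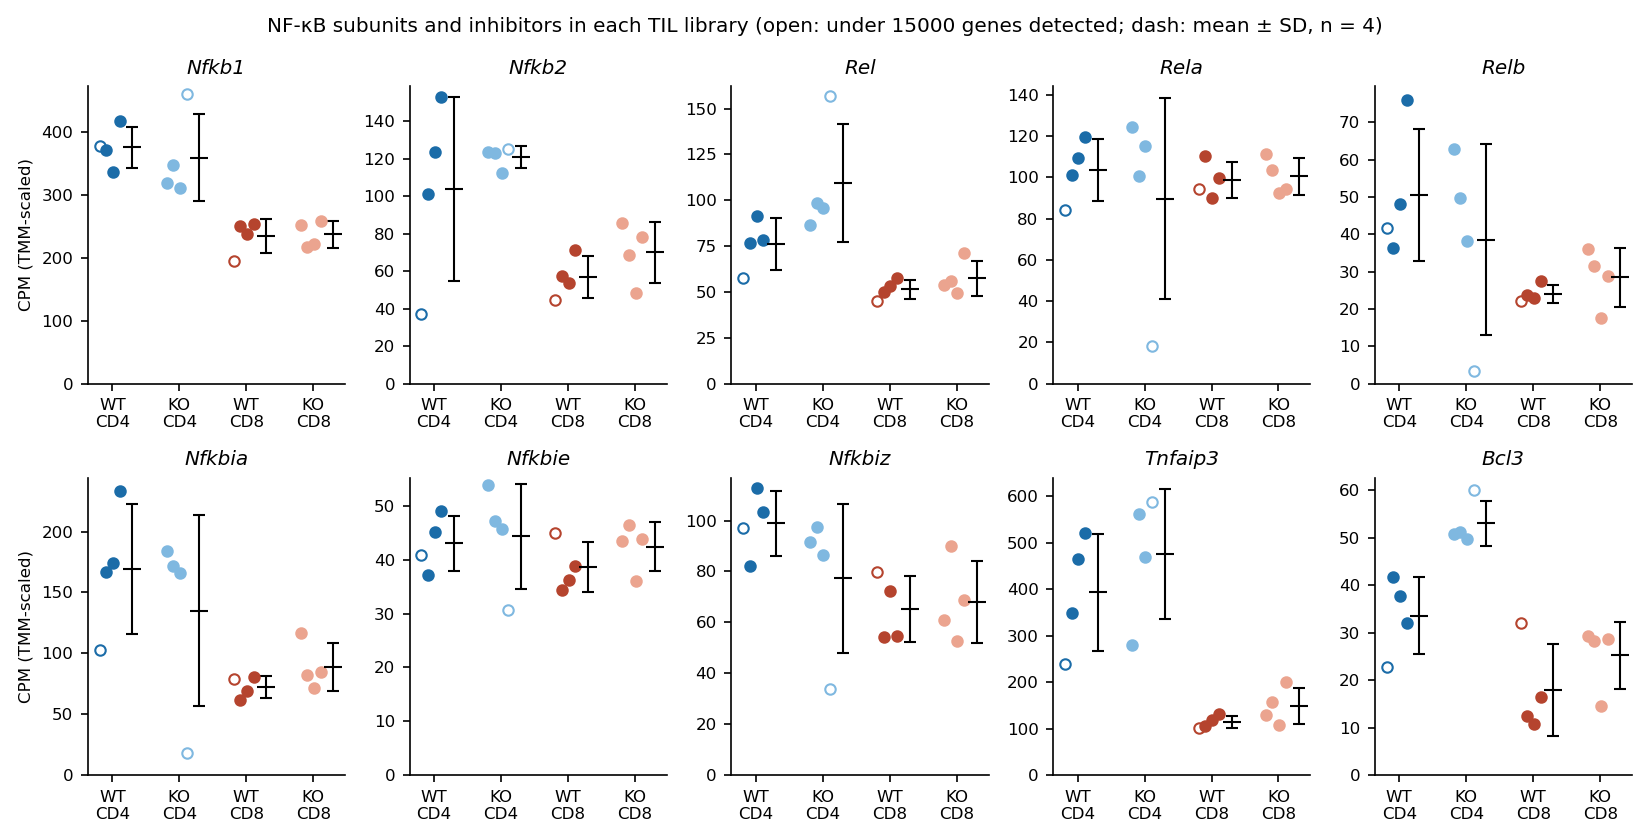
TMM-scaled CPM (linear axes from 0) of each of the 10 genes in the 4 libraries of each group. Each point is 1 library, open points are the low-gene libraries, and the dash with bars is the mean ± SD of all 4. CD8+ libraries lie below the CD4+ libraries of their genotype for *Nfkb1*, *Rel* and *Tnfaip3* in both genotypes. Sirt2KO CD4 replicate 4 lies far below its group for *Rela*, *Relb*, *Nfkbia* and *Nfkbiz*.

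The first comparison asked how the NF-κB genes differ between the 2 kinds of TIL. In WT TILs, *Nfkb1*, *Rel*, *Relb*, *Nfkbia*, *Nfkbiz* and *Tnfaip3* were lower in CD8+ than in CD4+ cells, by 0.63 to 1.86 on the log2 scale, and all 10 genes had a log2 fold change below 0. These 6 of 10 passed edgeR's quasi-likelihood test with Benjamini–Hochberg adjustment, all of them lower, against 11.9% of the 14892 genes tested that passed in either direction and 6.96% that were lower in CD8+. The median log2 fold change of the 10 was -0.84, beside -0.023 over all genes tested. The 4 CD8+ libraries lay wholly below the 4 CD4+ libraries for the same 6 genes, as they did for 10.2% of all genes tested. When the low-gene libraries were left out, *Nfkb2* and *Bcl3* passed as well and 8 of 10 were lower, against 28% called in either direction and 13.1% called lower. In bulk RNA, fewer cells of a type that expresses a gene and less RNA per cell cannot be told apart.

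In Sirt2KO TILs with all libraries, 1 of the 10 genes passed, *Tnfaip3*, against 2.24% of 15787 genes called in either direction and 1.32% called lower in CD8+. Groups did not overlap, with CD8+ the lower, for 5 of the 10 (*Nfkb1*, *Nfkb2*, *Rel*, *Tnfaip3* and *Bcl3*) and for 6.37% of all genes tested. Without Sirt2KO CD4 replicate 4, the only low-gene library of this genotype, 7 of 10 were lower in CD8+ (*Nfkb1*, *Nfkb2*, *Rel*, *Relb*, *Nfkbia*, *Tnfaip3* and *Bcl3*), against 25.4% called in either direction and 11.6% called lower. The median log2 fold change of the 10 was -0.61 with all libraries and -0.75 without that library, beside 0.16 and -0.0042 over all genes tested.

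**Figure D2:**
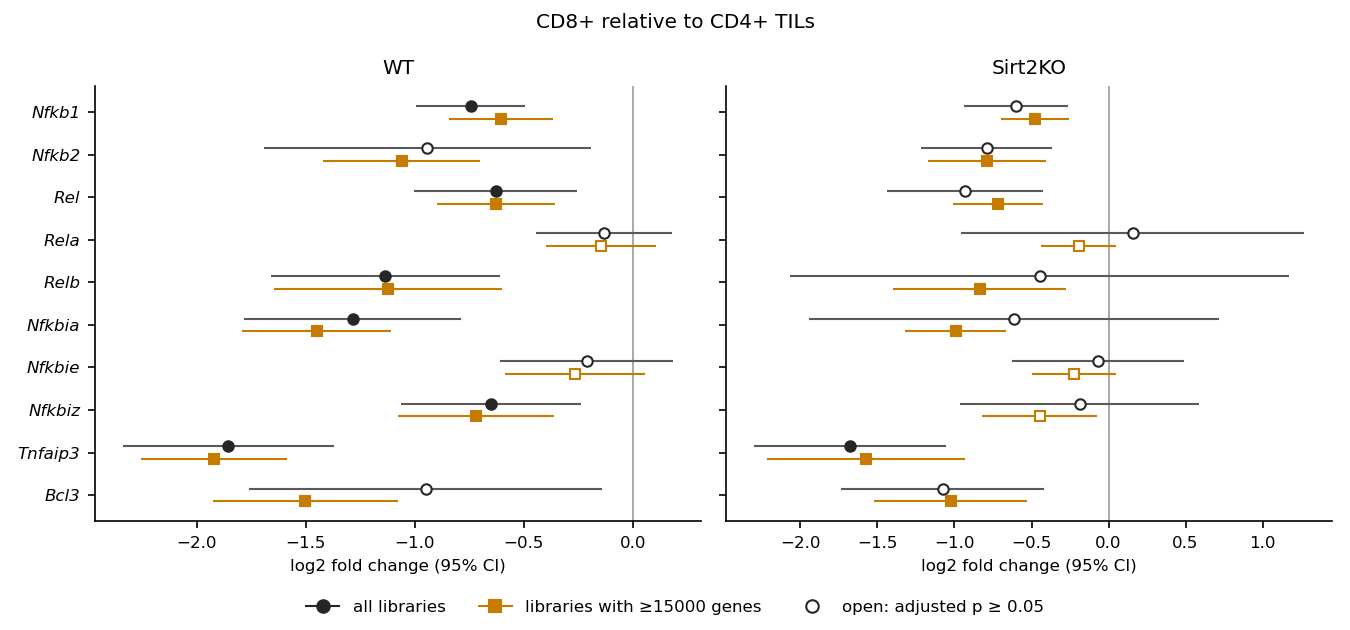
Log2 fold change of CD8+ relative to CD4+ TILs (x axis) for each gene in WT (left) and Sirt2KO (right), with bars for the 95% confidence interval. Black circles use all libraries and orange squares leave out the low-gene libraries, and filled symbols passed an adjusted p of 0.05. In WT all 10 estimates lie left of 0, *Rela* and *Nfkbie* nearest to it, and in Sirt2KO the intervals of *Rela*, *Relb* and *Nfkbia* narrow once Sirt2KO CD4 replicate 4 is left out.

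Among the subunits, *Nfkb1* (ENSMUSG00000028163.17, chr3:135584655-135691547, minus strand) encodes p105 and its processed product, the DNA-binding partner of RelA and c-Rel. It measured 377, 371, 336 and 416 CPM in WT CD4 replicates 1 to 4 and 195, 250.3, 237 and 254 CPM in WT CD8. The Sirt2KO libraries measured 318, 347, 311 and 459 CPM in CD4+ and 252, 217, 221 and 258 CPM in CD8+ TILs. Every CD8+ library was below every CD4+ library of its genotype. The log2 fold change of CD8+ relative to CD4+ was -0.74 ± 0.11 (SE, 95% confidence interval -0.99 to -0.49) in WT (edgeR adjusted p = 0.00174) and -0.60 ± 0.15 (SE) in Sirt2KO (edgeR adjusted p = 0.0893), and without the low-gene libraries -0.61 and -0.48 (edgeR adjusted p = 0.00199 and 0.00514).

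*Rel* (ENSMUSG00000020275.9, chr11:23736847-23770970, minus strand) encodes c-Rel, the subunit most tied to lymphocytes. It measured 57.3, 76.8, 91.6 and 78.2 CPM in WT CD4 and 45.2, 49.8, 53.1 and 57.3 CPM in WT CD8, where the lowest CD4+ value, that of a low-gene library, lay next to the highest CD8+ value without crossing it. In Sirt2KO it measured 86.3, 98.3, 95.8 and 157 CPM in CD4+ and 53.6, 55.9, 49.3 and 71.3 CPM in CD8+ TILs, and the low-gene library, replicate 4, was the highest of all. *Rel* thus had a log2 fold change of -0.63 ± 0.17 (SE) in WT (edgeR adjusted p = 0.0344) and -0.93 ± 0.22 (SE) in Sirt2KO (edgeR adjusted p = 0.0821). The WT call was lost when any of 7 of the 8 libraries was left out, all but WT CD4 replicate 1, at log2 fold changes of -0.67 to -0.52 and adjusted p of 0.0778 to 0.147. Without all low-gene libraries edgeR gave -0.63 ± 0.12 (SE) in WT (edgeR adjusted p = 0.00328) and -0.72 ± 0.13 (SE) in Sirt2KO (edgeR adjusted p = 0.00268).

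*Relb* (ENSMUSG00000002983.17, chr7:19606217-19629438, minus strand), the subunit released by the noncanonical branch, measured 41.5, 36.3, 48.1 and 76.1 CPM in WT CD4 and 22.0, 23.8, 22.9 and 27.4 CPM in WT CD8. Its Sirt2KO values were 62.9, 49.8, 38.1 and 3.43 CPM in CD4+ and 36.1, 31.6, 17.5 and 28.7 CPM in CD8+ TILs, and replicate 4 of Sirt2KO CD4 was below every other library. The WT groups did not overlap (log2 fold change -1.14 ± 0.24 (SE, 95% confidence interval -1.66 to -0.61), edgeR adjusted p = 0.0105), and without the low-gene libraries the WT value was -1.12 (edgeR adjusted p = 0.00518). In Sirt2KO the change was -0.45 ± 0.71 (SE) with all libraries (edgeR adjusted p = 0.998) and -0.84 ± 0.25 (SE) without the low-gene library (edgeR adjusted p = 0.0361).

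*Nfkb2* (ENSMUSG00000025225.15, chr19:46304320-46312385, plus strand) encodes p100, which holds RelB until it is processed. It measured 37.3, 101, 124 and 153 CPM in WT CD4 and 44.4, 57.4, 53.5 and 71.6 CPM in WT CD8, and WT CD4 replicate 1, a low-gene library, was below all 8 CD8+ libraries of both genotypes. Among Sirt2KO libraries it measured 124, 123, 113 and 125 CPM in CD4+ and 85.9, 68.4, 48.2 and 78.3 CPM in CD8+ TILs, with no overlap. In WT its log2 fold change was -0.94 ± 0.34 (SE) with all libraries (edgeR adjusted p = 0.106), -1.14 without WT CD4 replicate 1 alone (edgeR adjusted p = 0.00136) and -1.06 ± 0.16 (SE) without the low-gene libraries (edgeR adjusted p = 0.000803). In Sirt2KO it was -0.79 ± 0.19 (SE) (edgeR adjusted p = 0.0785) and -0.79 ± 0.17 (SE) without the low-gene library (edgeR adjusted p = 0.00752). On the opposite strand, 531 exonic bases of *Nfkb2* overlap AC114539.1 and 299 overlap *Psd*, with mean counts of 684.1 and 20.6 over the 16 libraries against 3805.4 for *Nfkb2*, and since the strand setting of the counting is not stated, reads from these overlaps cannot be assigned with certainty.

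*Rela* (ENSMUSG00000024927.8, chr19:5637483-5648130, plus strand), the main activating subunit of the canonical branch, was the 1 subunit not called between the cell types in either genotype, with or without the low-gene libraries. It measured 84.3, 101, 109 and 119.7 CPM in WT CD4 and 94.4, 110.3, 90.1 and 99.5 CPM in WT CD8, and the groups overlapped throughout. Sirt2KO values were 125, 101, 115 and 17.96 CPM in CD4+ and 111, 104, 92.3 and 94.4 CPM in CD8+ TILs, with the low-gene library far below the rest. Without the low-gene libraries the log2 fold change was -0.15 ± 0.11 (SE, 95% confidence interval -0.40 to 0.11) in WT (edgeR adjusted p = 0.397) and -0.19 ± 0.11 (SE, 95% confidence interval -0.44 to 0.047) in Sirt2KO (edgeR adjusted p = 0.237), so that neither interval reached below -0.44. With all libraries it was -0.13 and 0.16 (edgeR adjusted p = 0.635 and 0.998). The difference between *Rela* and the other subunits was not tested.

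Among the inhibitors, *Tnfaip3* (ENSMUSG00000019850.11, chr10:19000910-19015657, minus strand) had the largest difference of the 10 between the cell types in both genotypes. It measured 238, 349, 465 and 521 CPM in WT CD4 and 101, 106, 117 and 131 CPM in WT CD8. Sirt2KO libraries gave 280.1, 562, 469 and 588 CPM in CD4+ and 129.7, 157, 108 and 199 CPM in CD8+ TILs. The highest CD8+ library, of either genotype, was below the lowest CD4+ library. The log2 fold change was -1.86 ± 0.22 (SE, 95% confidence interval -2.34 to -1.37) in WT (edgeR adjusted p = 0.000382) and -1.68 ± 0.27 (SE, 95% confidence interval -2.30 to -1.06) in Sirt2KO (edgeR adjusted p = 0.0191), and -1.92 and -1.58 without the low-gene libraries (edgeR adjusted p = 1.10e-05 and 0.00476). The Sirt2KO call was lost when Sirt2KO CD4 replicate 2 or 3 or Sirt2KO CD8 replicate 1, 2 or 3 was left out (log2 fold change -1.71 to -1.55, adjusted p of 0.064 to 0.0825).

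*Nfkbia* (ENSMUSG00000021025.8, chr12:55489410-55492647, minus strand), the IκBα gene that resets the pathway after each signal, measured 102, 167, 175 and 234 CPM in WT CD4 and 78.5, 61.3, 69.2 and 80.9 CPM in WT CD8. For Sirt2KO the values were 184, 172, 166 and 17.8 CPM in CD4+ and 116, 82.5, 71.3 and 84.7 CPM in CD8+ TILs. The WT groups did not overlap, and in Sirt2KO only the low-gene library was not above the CD8+ range but below it. The log2 fold change in WT was -1.28 ± 0.23 (SE, 95% confidence interval -1.78 to -0.79) (edgeR adjusted p = 0.00378), and -1.45 without the low-gene libraries (edgeR adjusted p = 8.26e-05). In Sirt2KO it was -0.61 ± 0.58 (SE) with all libraries (edgeR adjusted p = 0.909) and -0.99 ± 0.15 (SE, 95% confidence interval -1.32 to -0.66) without that library (edgeR adjusted p = 0.000839).

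*Bcl3* (ENSMUSG00000053175.17, chr7:19808462-19822770, minus strand) encodes a nuclear IκB that joins dimers of the p50 or p52 subunit on DNA. It measured 22.8, 41.6, 37.8 and 32.1 CPM in WT CD4 and 32.0, 12.4, 10.8 and 16.5 CPM in WT CD8, where the low-gene library of each group lay away from the other 3 and toward the other cell type. With *Sirt2* deleted it measured 50.8, 51.3, 49.8 and 60.1 CPM in CD4+ and 29.2, 28.3, 14.5 and 28.7 CPM in CD8+ TILs, with no overlap. CD8+ relative to CD4+, its log2 fold change in WT was -0.95 ± 0.37 (SE) with all libraries (edgeR adjusted p = 0.133), -1.38 without WT CD8 replicate 1 alone (edgeR adjusted p = 0.0107) and -1.50 ± 0.19 (SE, 95% confidence interval -1.93 to -1.08) without the low-gene libraries (edgeR adjusted p = 0.000253). In Sirt2KO it was -1.08 ± 0.29 (SE) (edgeR adjusted p = 0.115) and -1.02 ± 0.22 (SE) without the low-gene library (edgeR adjusted p = 0.00778).

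*Nfkbiz* (ENSMUSG00000035356.17, chr16:55811375-55838899, minus strand) encodes IκBζ, another nuclear IκB. It measured 97.2, 82.2, 113 and 103 CPM in WT CD4 and 79.9, 54.3, 72.3 and 54.7 CPM in WT CD8, without overlap but with neighbouring extremes. In Sirt2KO it measured 91.7, 97.3, 86.5 and 33.6 CPM in CD4+ and 60.9, 90.2, 52.6 and 68.7 CPM in CD8+ TILs, and the groups overlapped. Its WT log2 fold change was -0.65 ± 0.19 (SE) (edgeR adjusted p = 0.0452), and the call was lost when any of 7 of the 8 libraries was left out, all but WT CD8 replicate 1 (-0.73 to -0.49, adjusted p of 0.0512 to 0.199). Without the low-gene libraries it was -0.72 ± 0.16 (SE) in WT (edgeR adjusted p = 0.00747). The Sirt2KO change was -0.19 ± 0.34 (SE) with all libraries (edgeR adjusted p = 0.998) and -0.45 ± 0.17 (SE) without replicate 4 of Sirt2KO CD4 (edgeR adjusted p = 0.0808).

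*Nfkbie* (ENSMUSG00000023947.8, chr17:45555703-45563169, plus strand), the IκBε gene, did not pass the test between the cell types in either genotype. It measured 41.0, 37.2, 45.1 and 49.0 CPM in WT CD4, 45.1, 34.4, 36.4 and 38.9 CPM in WT CD8, 53.9, 47.2, 45.7 and 30.7 CPM in Sirt2KO CD4 and 43.6, 46.4, 36.0 and 44.0 CPM in Sirt2KO CD8. The groups overlapped in both genotypes. The log2 fold change was -0.21 ± 0.18 (SE, 95% confidence interval -0.61 to 0.18) in WT (edgeR adjusted p = 0.540) and -0.27 without the low-gene libraries (edgeR adjusted p = 0.213). In Sirt2KO it was -0.067 with all libraries (edgeR adjusted p = 0.998) and -0.22 ± 0.12 (SE, 95% confidence interval -0.49 to 0.050) without the low-gene library (edgeR adjusted p = 0.231).

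Markers of Treg cells moved with these differences. *Foxp3*, the defining Treg factor, was 360.5 to 898 CPM in WT CD4 and 311 to 674 in Sirt2KO CD4, against 0.913 to 4.41 and 2.58 to 6.77 in the CD8+ groups. The sum of the 8 Treg markers was 2035 to 3151 CPM in WT CD4, 1523 to 3166 in Sirt2KO CD4, 177 to 320.4 in WT CD8 and 235 to 435 in Sirt2KO CD8, and none of the 8 was at 0 throughout any group. Of the 8, 7 were called lower in CD8+ TILs in WT and 6 in Sirt2KO. The part of Treg cells in the differences of the NF-κB genes was not tested. The sum of 10 housekeeping genes moved the other way, 8849.7 to 11287 CPM in WT CD4 against 9592 to 17137 in WT CD8.

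Levels can be compared between genes only per length, and CPM was therefore divided by the kilobases of annotated exon of each gene. In the libraries with at least 15000 genes, *Nfkbia* was the highest of the 10 in every group, at 119 ± 22.7 CPM per kb (SD, n = 3) in WT CD4, 108 ± 5.54 (n = 3) in Sirt2KO CD4, 43.8 ± 6.11 (n = 3) in WT CD8 and 55.1 ± 12.1 (n = 4) in Sirt2KO CD8. Its lowest library was above the highest library of the next gene in all 4 groups. That next gene was *Tnfaip3* in CD4+ TILs (61.6 ± 12.1 CPM per kb in WT and 60.5 ± 19.9 in Sirt2KO) and *Rela* in CD8+ TILs (32.5 ± 3.29 in WT and 32.7 ± 2.86 in Sirt2KO). In CD8+ TILs *Rela* was above *Tnfaip3* (16.3 ± 1.70 in WT) without overlap, whereas in WT CD4 *Tnfaip3* was above *Rela* (35.8 ± 3.03) without overlap, and in Sirt2KO CD4 the ranges of both overlapped.

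In WT CD4 the order below *Rela* was *Nfkb1* (31.0 ± 3.34 CPM per kb), *Nfkb2* (27.5 ± 5.67), *Nfkbiz* (19.8 ± 3.14), *Bcl3* (15.02 ± 1.94), *Nfkbie* (14.4 ± 1.98), *Relb* (13.8 ± 5.26) and *Rel* (11.01 ± 1.09), and each of these overlapped its neighbour. In WT CD8 it was *Nfkb1* (20.5 ± 0.714), *Tnfaip3*, *Nfkb2* (13.3 ± 2.07), *Nfkbiz* (12.05 ± 2.05), *Nfkbie* (12.01 ± 0.737), *Rel* (7.15 ± 0.501), *Relb* (6.36 ± 0.613) and *Bcl3* (5.34 ± 1.19). There, *Nfkbie* was above *Rel* and *Nfkb1* above *Tnfaip3* without overlap, and the other neighbours overlapped. The length used matters for *Nfkb1*, whose merged exons span 12061 bases while its longest annotated transcript has 4149. With the transcript length and all libraries, *Nfkb1* ranked above *Nfkbia* in WT CD8 (56.4 against 45.9 CPM per kb) and Sirt2KO CD8 (57.1 against 56.2). In Sirt2KO CD4 the means were 86.5 for *Nfkb1* and 85.5 for *Nfkbia*. They include the low-gene library, where *Nfkbia* was at 17.8 CPM against 166 to 184 in the others. The ranking by transcript length was not made without the low-gene libraries.

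**Figure D3:**
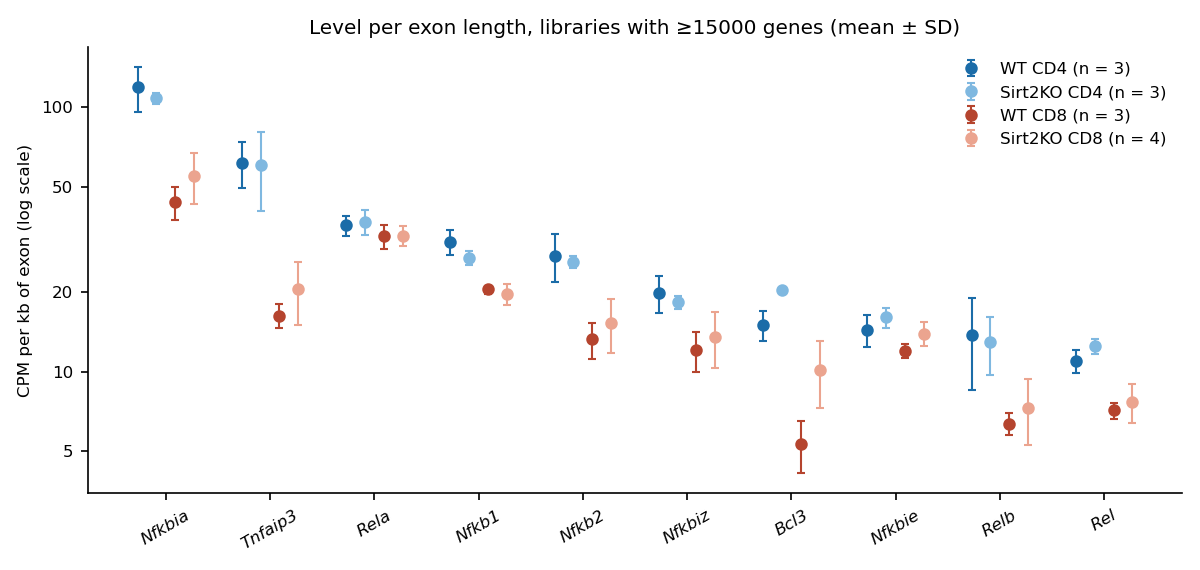
Mean CPM per kilobase of exon (log axis) of each gene in the 4 groups, with bars for the SD, over the libraries with at least 15000 genes. Genes are ordered by their level in WT CD4. *Nfkbia* is highest in each group, and *Tnfaip3* falls from above *Rela* in CD4+ to below it in CD8+ TILs.

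The rest of the pathway was read from lists of its other genes, by role. The background of each count with all libraries is the share of all genes tested that was called. In WT it is 6.96% lower and 11.9% in either direction, and in Sirt2KO 1.32% and 2.24%. Of 19 other inhibitors and brakes, 6 were lower and 1 higher in WT CD8+ than CD4+ TILs by edgeR's quasi-likelihood test with Benjamini–Hochberg adjustment, with a median log2 fold change of -0.44 beside -0.023 over all genes. The lower ones with the smallest p were *Tax1bp1* (-0.80 ± 0.10), an adaptor of A20, *Cyld* (-0.85 ± 0.11), a deubiquitinase, and *Tnip1* (-0.82 ± 0.13), an A20-binding protein, and the higher one was *Nlrc3* (0.84 ± 0.17), where ± gives the SE. In Sirt2KO *Tax1bp1* (-0.89 ± 0.14), *Cyld* (-0.90 ± 0.18) and *Nlrc3* (0.83 ± 0.16) passed, each in the same direction as in WT. When the low-gene libraries were left out, the counts were 10 lower and 2 higher in WT and 6 lower and 1 higher in Sirt2KO, where the background was 13.1% lower of 28% called and 11.6% of 25.4%.

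Of 29 kinases and adaptors, 9 were lower and 1 higher in WT CD8+ TILs (median -0.18). *Malt1* (-0.94 ± 0.14), the paracaspase that couples the T cell receptor to the IκB kinase, *Map3k14* (-1.02 ± 0.20), the kinase of the noncanonical branch, and *Traf6* (-0.88 ± 0.18), a ubiquitin ligase, were lower, while *Prkcq* (0.55 ± 0.10), the protein kinase C isoform of the T cell receptor, was higher. *Birc3* (-0.80 ± 0.15), a ubiquitin ligase and NF-κB target, was the one gene of the list called in Sirt2KO with all libraries. When the low-gene libraries were left out, the counts of this list were 7 lower and 2 higher in WT, with the median at -0.038, and 7 lower and 1 higher in Sirt2KO. The background was then 13.1% lower of 28% called in WT and 11.6% lower of 25.4% called in Sirt2KO. *Chuk*, *Ikbkb* and *Ikbkg*, which encode the 3 parts of the IκB kinase, were not called in either genotype (log2 fold changes of 0.0043 ± 0.17, 0.093 ± 0.14 and -0.071 ± 0.15 in WT).

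Receptors had the lowest median of the 6 lists in both genotypes. Of 18 tested, 9 were lower and 1 higher in WT CD8+ TILs (median -0.99), and 4 of 19 were lower in Sirt2KO (median -0.89). Without the low-gene libraries, 10 of 20 were lower and 2 higher in WT, and 10 of 20 were lower and 0 higher in Sirt2KO. Over all genes tested, 13.1% were then lower of 28% called in WT and 11.6% of 25.4% in Sirt2KO. The OX40 gene *Tnfrsf4* had -4.88 ± 0.23 in WT and -3.92 ± 0.31 in Sirt2KO, the GITR gene *Tnfrsf18* had -2.34 ± 0.13 and -1.95 ± 0.24, and the IL-33 receptor gene *Il1rl1* had -3.84 ± 0.35 and -4.59 ± 0.86. *Tnfrsf4* and *Tnfrsf18* also stand in the Treg marker list. *Il18r1* was lower in Sirt2KO (-1.14 ± 0.17), and *Il18rap*, its partner chain, was higher in WT (0.63 ± 0.13). Of 10 ligands tested, *Cd40lg*, the CD40 ligand of helper T cells, was the 1 called in WT (-6.89 ± 0.70), and none of 13 was called in Sirt2KO. There, log2 fold changes ranged from -6.18 to 1.93. At an unadjusted p of 0.05 by edgeR 2 of the 13 passed, against 1842 of 15787 genes tested. DESeq2 called 2 and limma-voom 5, against 1339 and 4481 of all genes tested. Without the low-gene library the edgeR counts in Sirt2KO were 2 higher and 2 lower of 14, against 11.6% lower of 25.4% called.

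NF-κB target genes did not move one way. Of 25 tested in WT, 6 were lower and 2 higher in CD8+ TILs (median -0.43). *Il2ra*, the high-affinity IL-2 receptor chain (-2.91 ± 0.25), *Sdc4* (-6.06 ± 0.57) and *Cflar*, an inhibitor of death receptor signals (-0.74 ± 0.12), were lower, and *Myc* (1.63 ± 0.14) and the chemokine gene *Ccl5* (1.51 ± 0.34) were higher. In Sirt2KO, *Il2ra* (-2.86 ± 0.35), *Irf4* (-1.0 ± 0.20) and *Gadd45b* (-2.27 ± 0.45) were lower and *Ccnd2* (0.60 ± 0.11) was higher. Without the low-gene libraries the counts were 8 higher and 8 lower of 26 in WT and 7 and 7 of 27 in Sirt2KO. The background in that setting was 13.1% lower of 28% called in WT and 11.6% lower of 25.4% called in Sirt2KO. Of 18 immediate early genes, which respond within minutes to receptor signals and to handling of tissue, *Dusp1* (-2.21 ± 0.37) and *Junb* (-1.01 ± 0.27) were lower and *Dusp2* (1.397 ± 0.37) higher in WT, and *Dusp1* (-1.80 ± 0.35) was lower in Sirt2KO. With the low-gene libraries left out, the counts of this list were 7 lower and 4 higher in WT and 4 lower and 4 higher in Sirt2KO. Their background is the one given for the target genes in that setting. The summed level of the 18 was 661 to 1087 CPM in WT CD4 and 604 to 965 in WT CD8, and the part of tissue digestion in it was not tested.

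**Figure D4:**
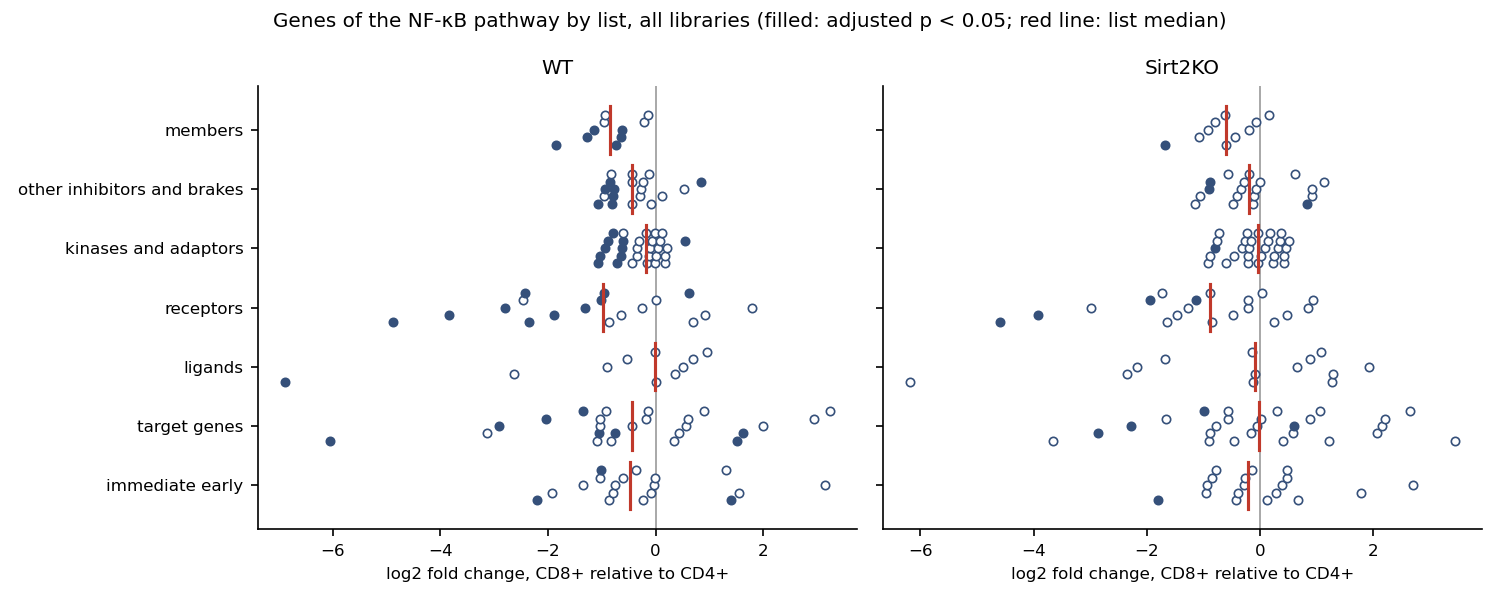
Log2 fold change of CD8+ relative to CD4+ TILs (x axis) for each gene tested, by list (rows; the 10 subunit and inhibitor genes in the top row), in WT (left) and Sirt2KO (right), with all libraries. Filled points passed an adjusted p of 0.05 and the red line is the median of the list. Receptors have the lowest median in both panels. The lowest ligand reaches further left than any receptor in both panels, and the lowest target gene does so in WT only. Target genes spread to both sides of 0.

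The second comparison asked whether loss of *Sirt2* changed these genes. None of the 10 passed edgeR's quasi-likelihood test with Benjamini–Hochberg adjustment in CD4+ TILs, where 0% of 15070 genes passed, nor in CD8+ TILs, where 0.00654% of 15302 passed, *Sirt2* alone. At an unadjusted p of 0.05 the counts were 0 of 10 in both cell types, against 1.26% and 3.78% of all genes. DESeq2 and limma-voom with sample quality weights also called 0 of the 10 in either cell type. Over all genes tested in CD4+ and CD8+ TILs, DESeq2 called 7 and 28 and limma-voom 4 and 5. At an unadjusted p of 0.05, DESeq2 had 1 of the 10 in each cell type, against 313 of 15070 and 752 of 15302 genes. Limma-voom had 1 of 10 in CD4+ and 3 of 10 in CD8+ TILs, against 1102 and 893 genes. With edgeR and without the low-gene libraries 0 of 10 passed again, against 0.0374% of 16034 genes in CD4+ and 0.0439% of 15943 in CD8+ TILs. In that fit *Bcl3* was the 1 gene of the 10 under an unadjusted p of 0.05 in each, against 4.35% and 4.18% of all genes.

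*Bcl3* was higher in every Sirt2KO CD4 library than in every WT CD4 library (53.0 ± 4.77 against 33.6 ± 8.17 CPM, SD, n = 4 each), 1 gene of the 10 whose groups did not overlap, against 3.15% of all genes in CD4+ TILs. The log2 fold change was 0.65 ± 0.29 (SE, 95% confidence interval -0.00082 to 1.30) with an edgeR adjusted p of 1, and 0.45 ± 0.15 (SE, 95% confidence interval 0.12 to 0.77) without the low-gene libraries (edgeR adjusted p = 0.868). In CD8+ TILs no gene of the 10 had groups that did not overlap, against 2.88% of all genes. *Bcl3* there was 25.2 ± 7.14 CPM in Sirt2KO and 17.9 ± 9.69 CPM in WT, and its log2 fold change was 0.46 ± 0.36 (SE, 95% confidence interval -0.33 to 1.25) with all libraries (edgeR adjusted p = 0.986) and 0.95 ± 0.25 (SE, 95% confidence interval 0.39 to 1.51) without WT CD8 replicate 1 (edgeR adjusted p = 0.880). *Bcl3* lies 8.94 Mb and *Relb* 9.14 Mb from *Sirt2* on chromosome 7. The strain name gives a 129 origin for the targeted allele, and 129 sequence left around it and loss of *Sirt2* cannot be told apart in these groups. The summed myeloid markers given above were higher in every Sirt2KO library than in every WT library of its cell type. Of the 13, 5 were under 1 CPM on average in Sirt2KO CD8, and none was at 0 throughout a group. In Sirt2KO CD4 replicate 4 the sum of 149 CPM was mostly *Apoe*, at 137.5 CPM. There *Csf1r*, *Adgre1*, *C1qa*, *C1qb*, *C1qc*, *Cd14* and *Fcgr3* were at 0. The part of these markers in the level of *Bcl3* was not tested. The opposite-strand gene Gm16175, with a mean count of 7.8, shares 161 exonic bases with *Bcl3*, whose mean count was 1418.4.

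The other 9 genes had smaller estimates. In CD4+ TILs with all libraries they ranged from -0.39 (*Relb*) to 0.51 (*Rel*), beside a median of -0.11 over all genes. Without Sirt2KO CD4 replicate 4 these were -0.0059 (*Relb*) and 0.30 (*Rel*), and without both low-gene CD4+ libraries the 9 ranged from -0.20 (*Nfkb1*) to 0.18 (*Rel*). The 95% confidence interval of *Rela*, the subunit reported as a SIRT2 substrate, was then -0.24 to 0.33 in CD4+ and -0.20 to 0.25 in CD8+ TILs. Acetylation of the protein was not measured here. In CD8+ TILs with all libraries the 9 ranged from 0.0078 (*Nfkb1*) to 0.38 (*Tnfaip3*, edgeR adjusted p = 0.986), all above 0, beside a median of 0.011 over all genes. Without WT CD8 replicate 1, *Nfkb1* lay at -0.043 and *Tnfaip3* at 0.35. *Nfkbia* was 88.7 ± 19.4 CPM in Sirt2KO CD8 and 72.5 ± 8.98 CPM in WT CD8 (log2 fold change 0.27 ± 0.16 (SE, 95% confidence interval -0.076 to 0.62), edgeR adjusted p = 0.986), and the groups overlapped.

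No gene of the 6 pathway lists passed edgeR's test between the genotypes in either cell type, with or without the low-gene libraries. Over the lists together, 1 of 126 genes in CD4+ and 15 of 119 in CD8+ TILs were under an unadjusted p of 0.05, against 1.26% and 3.78% of all genes tested. By limma-voom these were 13 and 20, against 1102 of 15070 and 893 of 15302 genes tested, with 0 calls from the lists in both. DESeq2 called 0 from the lists in CD4+ and 2 in CD8+ TILs, *Sdc4* and *Jun*, against 7 and 28 of all genes tested. The range of log2 fold changes in CD4+ TILs was -1.01 to 0.57 for the other inhibitors and brakes, -0.83 to 0.56 for the kinases and adaptors, -1.08 to 1.53 for the receptors, -0.75 to 1.90 for the ligands, -1.69 to 4.38 for the target genes and -0.87 to 1.45 for the immediate early genes. Without the low-gene CD4+ libraries these ranges were -0.64 to 0.27, -0.34 to 0.28, -1.08 to 1.52, -0.60 to 1.92, -0.36 to 1.15 and -0.82 to 1.15 in the same order. In CD8+ TILs, 23 of 26 target genes had an estimate above 0 (median 0.28) and 15 of 18 immediate early genes did (median 0.25), beside a median of 0.011 over all genes. Without WT CD8 replicate 1 these medians were 0.16 and 0.029. In the same comparison 8 of 8 Treg markers were above 0 (median 0.31), and 7 of 8 without WT CD8 replicate 1 (median 0.35), and the summed myeloid markers were higher in every Sirt2KO CD8 than in every WT CD8 library. The part of these cells in the values of the lists was not tested. The genotype and cell type comparisons share libraries, so that a library that stands apart, such as WT CD8 replicate 1, enters both.

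**Figure D5:**
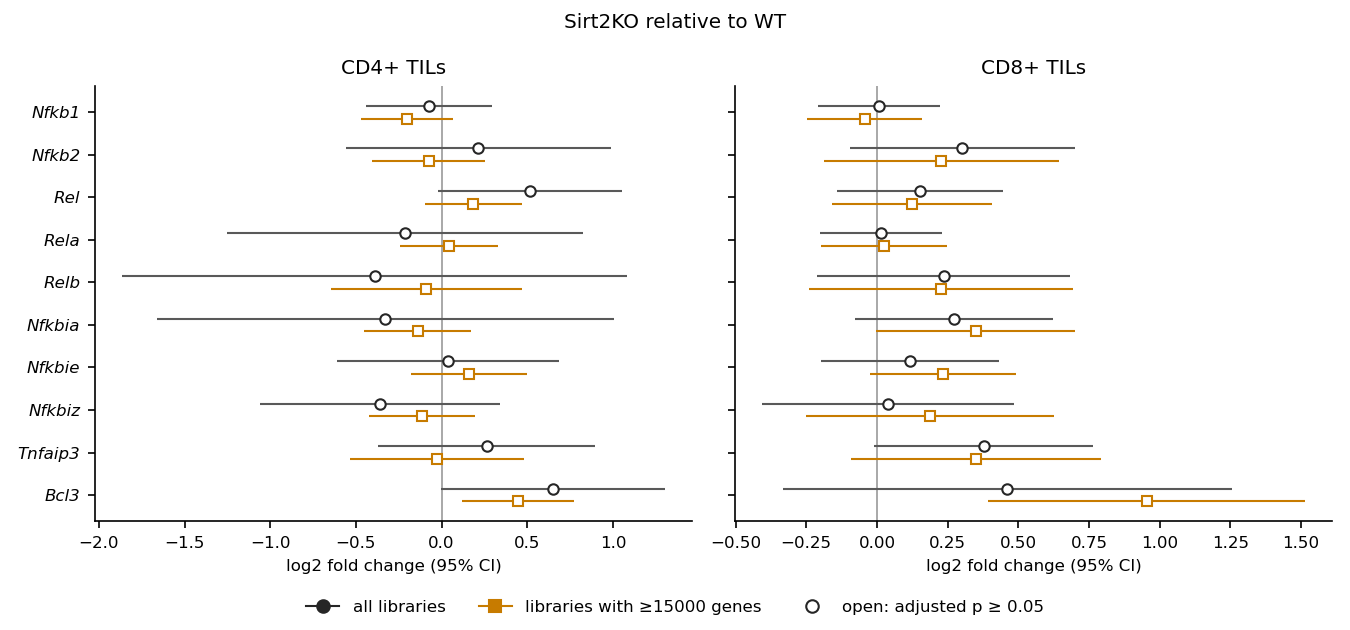
Log2 fold change of Sirt2KO relative to WT (x axis) for each gene in CD4+ (left) and CD8+ (right) TILs, with bars for the 95% confidence interval. Black circles use all libraries and orange squares leave out the low-gene libraries, and every symbol is open because none passed an adjusted p of 0.05. *Bcl3* has the estimate furthest to the right in both cell types.

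The difference of the genotype effect between the cell types was tested over all 16 libraries. None of the 10 genes passed edgeR's quasi-likelihood test with Benjamini–Hochberg adjustment, against 0% of 17270 genes with all libraries and 0% of 17993 without the low-gene libraries. DESeq2 and limma-voom called 0 of 10, against 2 and 0 of 17270 genes. The edgeR count at an unadjusted p of 0.05 was 0 of 10, against 1.98% of all genes. Without the low-gene libraries it was 1 of 10, against 3.69%. That gene was *Nfkbia*, whose genotype effect was 0.49 ± 0.23 (SE, 95% confidence interval 0.0095 to 0.97) higher on the log2 scale in CD8+ than in CD4+ TILs (edgeR unadjusted p = 0.0461, adjusted p = 1). With all libraries its interval was -0.76 to 1.99. The narrowest interval was that of *Nfkb1*, -0.15 to 0.47 without the low-gene libraries. A CD8+ to CD4+ difference called in one genotype and not in the other was therefore not shown to differ between the genotypes.

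Correlations among the 10 genes were taken across the 13 libraries with at least 15000 genes, which fall into 2 cell types, so that any gene that differs between the cell types shares part of this pattern. Pearson's r of log2 CPM was 0.967 between *Nfkb2* and *Nfkbia*, 0.957 between *Nfkb2* and *Relb*, 0.950 between *Rel* and *Tnfaip3* and 0.914 between *Nfkbia* and *Tnfaip3*. Over all 16 libraries the same pairs had 0.36, 0.20, 0.91 and 0.30. Over the 13 it was lowest for *Rela*, at 0.439 with *Nfkbiz* and 0.441 with *Rel*. After each group's mean was taken off, r was 0.854 between *Nfkb2* and *Nfkbia* and 0.885 between *Nfkb2* and *Relb*. For *Rel* and *Tnfaip3* it was then 0.772, and for *Nfkbia* and *Tnfaip3* it fell to 0.197. Between *Relb* and *Nfkbie* it was 0.909, and between *Rel* and *Rela* -0.287. These are descriptions over libraries that share their processing, not tests.

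Outside the 10, the genes whose log2 CPM was most like each of them over the same 13 libraries were *Tnfrsf18* (r = 0.978) and *Gna13* (0.976) for *Tnfaip3*, *Phldb1* (r = 0.984) and *Pim1* (0.982) for *Nfkbia* and *Birc3* (r = 0.965) and *Ifi44* (0.959) for *Bcl3*. *Tnfrsf18* encodes GITR, *Pim1* a kinase induced by cytokines and *Birc3* a ubiquitin ligase of the pathway. They were *Zfp219* (r = 0.968) and *Hif1an* (0.965) for *Nfkb1*, *Cnnm2* (r = 0.969) and *Zhx2* (0.963) for *Nfkb2*, *P2ry10* (r = 0.973) and *Adk* (0.963) for *Rel*, *Zfp276* (r = 0.971) and *Neurl3* (0.956) for *Relb* and *Pdcd7* (r = 0.921) and *Sfswap* (0.913) for *Rela*. For the remaining genes they were *Oas2* (r = 0.944) and *Scml4* (0.910) for *Nfkbie* and *Malat1* (r = 0.980) and *P2rx4* (0.936) for *Nfkbiz*. Over all 16 libraries *Tnfaip3* and *Tnfrsf18* still had r = 0.945 and *Bcl3* and *Birc3* 0.897, whereas *Nfkbia* and *Phldb1* had -0.0594 and *Nfkbiz* and *Malat1* 0.119, and the other pairs below 0.3 had -0.257 (*Nfkb1* and *Zfp219*), -0.341 (*Rela* and *Pdcd7*), -0.0254 (*Rela* and *Sfswap*), -0.0556 (*Relb* and *Zfp276*) and 0.239 (*Nfkbiz* and *P2rx4*). The rest of the pairs lay at 0.504 to 0.899. Each of these values was lower with the 3 low-gene libraries included, and several were near or below 0.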

How the data were processed

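Total RNA of each library was depleted of ribosomal RNA and made into stranded libraries from small input, and the reads were aligned and counted by the authors, whose submission names STAR, HTSeq and the mm10 genome without versions. The deposited values were raw counts per GENCODE gene for all 16 libraries in 1 table, and the strand setting of the counting is not given in the sources used here.

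The 10 genes, the pathway and marker lists and the libraries with under 15000 genes detected were chosen with earlier results of these data known. Groups came from the labels. For each comparison, counts were filtered (filterByExpr), scaled (TMM) and tested with edgeR 4.0.16 (robust quasi-likelihood, two-sided, R 4.3.3) on the libraries compared, or on all 16 for the interaction, with Benjamini–Hochberg adjustment over all genes tested and a threshold of 0.05. All 10 genes passed the filter in every comparison. CPM was scaled by TMM over all 16 libraries, and correlations used log2 CPM with a prior count of 2. Coordinates and exon lengths came from the GENCODE annotation of GRCm38 and promoter windows from RefSeq.

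Named genes were *Sirt2*, the 10 genes, those of each pathway list that passed the threshold (the 3 with the smallest p in each direction where over 6 did) and the 2 genes most correlated with each of the 10. *Chuk*, *Ikbkb* and *Ikbkg*, and *Sdc4* and *Jun* between genotypes, were named after their values were seen. Alternatives were DESeq2 1.42.0, limma 3.58.1 (voom with sample quality weights), DESeq2's size factors in edgeR, no filter, a replicate block, a minimum of 10 counts in each library, 1 model of all 16 libraries, total-count scaling, transcript length, the set without the libraries with under 15000 genes detected and leaving out each library in turn. The scripts were tested on simulated counts.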

Additional observations from a re-analysis of the deposited data

Results flagged for a closer look

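Of the 40 sets of 4 libraries (10 genes in 4 groups), 5 held a library far from the other 3 by Dixon's criterion, which chance meets in about 5% of sets. In Sirt2KO CD4 replicate 4, *Nfkbia* was at 17.8 CPM against 166 to 184 in the other 3 libraries. *Nfkbiz* was at 33.6 CPM in that library against 86.5 to 97.3. *Rel* was at 157 CPM there against 86.3 to 98.3, and *Bcl3* at 60.1 against 49.8 to 51.3, both above the rest. These 4 lie in the library with 8169 genes detected, and the part of its low gene number in them was not tested. In Sirt2KO CD8 replicate 3, *Bcl3* was at 14.5 CPM against 28.3 to 29.2 in the other 3.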

How the results depend on the processing

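Calls between the genotypes and of the interaction stayed at 0 of 10 under every alternative. For CD8+ against CD4+ TILs in WT, 6 of 10 passed, but 2 with all 16 libraries in 1 model (811 genes in all, against 1765), and 4 to 6 when 1 library was left out. DESeq2 called 2651, limma-voom 5504 and the fit without low-gene libraries 4394 genes there. In Sirt2KO, 1 of 10 (354 genes) became 5 with DESeq2 (1339 genes), 8 with limma-voom (4481), 5 with at least 10 counts in every library (907), 3 with all 16 libraries in 1 model (781) and 7 without the low-gene library (4250), and 0 to 7 when 1 library was left out, the 7 without Sirt2KO CD4 replicate 4. The cause was not tested.

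With a replicate block, 6 of 10 passed in WT (1619 genes) and 1 in Sirt2KO (108 genes, against 354). Deviations of same-numbered WT CD4 and CD8 libraries correlated at 0.067 to 0.116, each best with its own number, which is a hint from the data and not the design, and those in Sirt2KO at -0.014 to 0.133, so the numbers were not taken as pairs. With the block and without the low-gene libraries, a choice made after seeing the data, 8 of 10 passed in WT (4981 genes).

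Reversed log2 fold changes were all of uncalled differences. Without the low-gene libraries they were, for Sirt2KO against WT, -0.075 (*Nfkb2*), 0.044 (*Rela*) and -0.026 (*Tnfaip3*) in CD4+ and -0.043 (*Nfkb1*) in CD8+ TILs, for CD8+ against CD4+ in Sirt2KO -0.19 (*Rela*), and for the interaction -0.019 (*Rela*) and 0.51 (*Bcl3*). With limma-voom they were, in the same order, 0.021 (*Rela*) and 0.044 (*Relb*), -0.033 (*Nfkb1*) and -0.0095 (*Rela*), -0.13 (*Rela*), and -0.035 (*Rela*) and 0.44 (*Bcl3*). With at least 10 counts in every library, *Nfkbie* was -0.0094 in CD4+ TILs, and with the replicate block the interaction of *Nfkb2* was -0.092. When 1 library was left out, Sirt2KO against WT ranged in CD4+ TILs over -0.064 to 0.47 (*Nfkb2*), -0.41 to 0.13 (*Rela*), -0.51 to 0.040 (*Nfkbia*) and -0.071 to 0.18 (*Nfkbie*), and in CD8+ TILs over -0.043 to 0.057 (*Nfkb1*), -0.023 to 0.071 (*Rela*) and -0.13 to 0.19 (*Nfkbiz*). CD8+ against CD4+ in Sirt2KO ranged over -0.19 to 0.35 (*Rela*) and -0.22 to 0.027 (*Nfkbie*), and the interaction over -0.16 to 0.37 (*Nfkb2*), -0.11 to 0.44 (*Rela*), -0.054 to 0.20 (*Nfkbie*), -0.080 to 0.29 (*Tnfaip3*) and -0.37 to 0.29 (*Bcl3*). DESeq2's size factors in edgeR and no filter reversed no sign and lost 1 and 2 calls of single genes. With 4 libraries a group, 3 of the 16 low in genes detected, the precision of each difference is that of its printed interval.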

Other observations

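Marker lists not set beside a result above were summed in the same way. The 7 pan-T cell markers reached 2029.6 to 2773 CPM in WT CD4, 2293 to 2666 in Sirt2KO CD4, 2668 to 3352 in WT CD8 and 2766 to 3513 in Sirt2KO CD8. The 4 NK cell receptor genes, some of which CD8+ T cells also express, reached 0.0647 to 38.4 CPM in WT CD4, 20.8 to 86.8 in Sirt2KO CD4, 150.04 to 191 in WT CD8 and 107 to 218 in Sirt2KO CD8. The 9 dendritic cell markers reached 69.5 to 99.7 CPM in WT CD4, 25.9 to 164 in Sirt2KO CD4, 68.7 to 101 in WT CD8 and 62.2 to 138 in Sirt2KO CD8. Most of this was *Ccr7*, with means of 66.7, 81.3, 69.5 and 77.8 CPM in the same order, and 2 of the 9 were at 0 throughout every group. The 8 stromal and endothelial markers reached 95.2 to 118 CPM in WT CD4, 64.4 to 184 in Sirt2KO CD4, 34.2 to 49.4 in WT CD8 and 41.2 to 109.7 in Sirt2KO CD8. Of these 8, 6, 4, 7 and 3 were under 1 CPM on average in that order, and 2 were at 0 throughout WT CD4. The collagen genes *Col1a1*, *Col1a2* and *Col3a1* had means of 3.71, 0.765 and 0.295 CPM in WT CD4 and 9.11, 7.41 and 4.31 CPM in Sirt2KO CD4. *Dcn* and *Cdh5* were under 1 CPM on average in every group. Most of the WT CD4 sum therefore lay in the remaining markers, *Pdgfra*, *Pdgfrb* and *Pecam1*. The 3 helper lineage markers reached 533 to 721 CPM in WT CD4, 435 to 684 in Sirt2KO CD4, 0.742 to 10.6 in WT CD8 and 6.11 to 12.3 in Sirt2KO CD8, and the 3 cytotoxic lineage markers 185 to 206 CPM in WT CD4, 181 to 306 in Sirt2KO CD4, 1770.1 to 2100.4 in WT CD8 and 1924 to 2412 in Sirt2KO CD8.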
